A study of Mus musculus with 19 samples.

Results

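Triacylglycerol breakdown in fat cells is carried out by 3 lipases and set by a coactivator and an inhibitor of the first of them, and the transcripts of these 5 genes, of 24237 used from the table, were followed across 4 diets. They were picked by symbol for their known roles, with earlier results of these data known: the lipases Pnpla2, Lipe and Mgll, the coactivator Abhd5 and the inhibitor G0s2. RNA came from the epididymal white adipose tissue (eWAT) of male C57Bl6/J mice that were 9 to 10 weeks old when they were put on the diets and were studied after 17 weeks. The NormMg-LFD (n = 4) held 0.21% (wt/wt) MgO and 10% of its energy as fat, the LowMg-LFD (n = 5) 0.03% MgO and 10% fat, the NormMg-HFD (n = 5) 0.21% MgO and 60% fat, and the LowMg-HFD (n = 5) 0.03% MgO and 60% fat. The dietary fat was palm oil, no genetic change or agent is named in the labels, and each library came from 1 mouse. Expression is given as FPKM, a read number scaled to transcript length and library size, which allows levels of different genes to be compared.

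Stored triacylglycerol is taken apart in steps. Pnpla2 encodes adipose triglyceride lipase, which removes the first fatty acid, Lipe encodes hormone-sensitive lipase, which acts mainly on the diacylglycerol that is left, and Mgll encodes monoglyceride lipase, which releases the last fatty acid and glycerol. Abhd5 protein binds adipose triglyceride lipase and activates it, whereas G0s2 protein binds the same enzyme and inhibits it. Catecholamines raise lipolysis through beta-adrenergic receptors, cyclic AMP and protein kinase A, and insulin lowers it, so that much of the control acts on the proteins and is not seen in transcript levels.

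All 5 genes were present in the table, and all 5 passed the filter on low values. In GENCODE M21 (GRCm38) Pnpla2 lies at chr7:141455198-141460743 on the plus strand, Lipe at chr7:25379527-25398710 on the minus strand, Mgll at chr6:88724412-88828360 on the plus strand, Abhd5 at chr9:122351608-122381524 on the plus strand and G0s2 at chr1:193272161-193273217 on the minus strand. Antisense genes share 918 exonic bases with Lipe, 950 with Abhd5 and 167 with Mgll. Whether reads were counted by strand is not given in the sources used here, so reads of these antisense genes could have been counted with the 3 members.

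Pnpla2 and Lipe are the members that moved together across the diets, and their start regions are shown for that reason. The windows run from 250 bases before to 50 bases after the start and were read from RefSeq (GRCm38.p6), where every member matched. Capitals mark matches on either strand of the GC box GGGCGG, the nuclear receptor half-site AGGTCA, the E-box CACGTG, which reads the same on both strands, and the TATA box TATAAA. The Pnpla2 window is at chr7:141454938-141455237 (plus strand). Lipe has 2 windows, at chr7:25395938-25396237 and chr7:25390063-25390362 (both minus strand), for 2 annotated starts.
Pnpla2: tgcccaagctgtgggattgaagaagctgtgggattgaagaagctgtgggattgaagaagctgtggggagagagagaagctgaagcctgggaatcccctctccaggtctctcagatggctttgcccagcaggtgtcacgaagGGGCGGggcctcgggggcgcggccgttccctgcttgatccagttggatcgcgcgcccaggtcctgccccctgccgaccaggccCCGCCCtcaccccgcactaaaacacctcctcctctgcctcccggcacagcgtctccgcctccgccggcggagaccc
Lipe, upstream start: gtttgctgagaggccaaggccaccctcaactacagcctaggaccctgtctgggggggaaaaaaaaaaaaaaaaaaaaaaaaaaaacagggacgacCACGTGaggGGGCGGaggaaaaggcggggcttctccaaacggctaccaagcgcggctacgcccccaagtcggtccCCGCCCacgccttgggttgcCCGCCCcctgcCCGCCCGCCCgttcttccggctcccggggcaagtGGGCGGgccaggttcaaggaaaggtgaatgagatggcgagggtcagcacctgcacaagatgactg
Lipe, downstream start: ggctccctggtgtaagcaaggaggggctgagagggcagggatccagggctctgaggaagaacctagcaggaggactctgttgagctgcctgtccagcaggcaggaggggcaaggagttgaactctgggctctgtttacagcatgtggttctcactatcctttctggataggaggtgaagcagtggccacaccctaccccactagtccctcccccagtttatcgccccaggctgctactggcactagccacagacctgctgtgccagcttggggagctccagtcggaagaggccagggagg
The Pnpla2 window held 2 GC boxes. The upstream Lipe window held 6, of which a pair overlap, and 1 E-box, and the downstream Lipe window held no match. A GC box was also found in the windows of G0s2 (1 match), Abhd5 (1) and Mgll (1 in each of 2 windows), an E-box in 1 Mgll window, and the half-site in Abhd5 alone. Over all 32851 windows of this length, 35.7% held a GC box, 16.3% the half-site, 7.15% the E-box and 13.6% the TATA box, so that the GC box is a common match.

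Read numbers were even, at 12986441 to 13027028 per mouse, and 4 libraries stood apart. NormMg-LFD replicate 3 held exocrine pancreas transcripts (summed FPKM of 10 genes 1620, against 12.4 to 52.3 in the other mice). LowMg-LFD replicate 4 held epididymis transcripts (summed FPKM of 7 genes 127, against at most 3.84 in the others). NormMg-LFD replicate 4 and LowMg-HFD replicate 4 had 14950 and 15700 genes over 1 FPKM, against 12965 to 14016 in the others. Results are given with and without these libraries where they touch a member. For the labelled tissue, Adipoq, which encodes adiponectin, was at 1072 FPKM or more in each mouse, and Ucp1, the defining brown fat transcript, was at 1.59 FPKM or less.

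Transcripts of the 3 lipases were among the most abundant of the tissue. Ranked by FPKM within each mouse, Pnpla2 lay between rank 30 and rank 92, Lipe between 40 and 204 and Mgll between 101 and 195 of 24237 genes. G0s2 ranked from 197 to 537 and Abhd5 from 564 to 1441. In NormMg-LFD mice the mean level was 1096 ± 236 FPKM for Pnpla2, 853 ± 163 for Lipe, 379 ± 52.8 for Mgll, 213 ± 68.2 for G0s2 and 80.9 ± 19.7 for Abhd5 (SD, n = 4). The coactivator transcript was the least abundant of the set, and its mean was below that of the inhibitor transcript in each of the 4 groups.

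The order of the diets differed between members. Pnpla2 was highest in LowMg-LFD mice (1439 ± 257 FPKM), followed by NormMg-LFD (1096 ± 236), LowMg-HFD (1046 ± 135) and NormMg-HFD mice (667 ± 76.7), and of these neighbours only the last pair did not overlap. Lipe had the same order, at 863 ± 99.99, 853 ± 163, 725 ± 101 and 463 ± 84.1 FPKM, and again only the last pair did not overlap. A gap of this kind between the high-fat groups, with the low-Mg2+ side on top, was found for 3.2% of the 8336 genes tested. Mgll was highest in LowMg-HFD mice (466 ± 56.2 FPKM), then NormMg-HFD (425 ± 22.8), LowMg-LFD (406 ± 50.3) and NormMg-LFD mice (379 ± 52.8).

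Abhd5 stood at 98.6 ± 19.1 FPKM in LowMg-LFD, 80.9 ± 19.7 in NormMg-LFD, 73.4 ± 8.51 in NormMg-HFD and 70.2 ± 7.48 in LowMg-HFD mice. G0s2 stood at 219.9 ± 36.3 FPKM in LowMg-HFD, 213 ± 68.2 in NormMg-LFD, 211 ± 41.6 in LowMg-LFD and 182 ± 27.8 in NormMg-HFD mice. For Mgll, Abhd5 and G0s2 every pair of neighbours in this order overlapped (SD throughout, n = 4 for NormMg-LFD and 5 for the others).

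**Figure D1:**
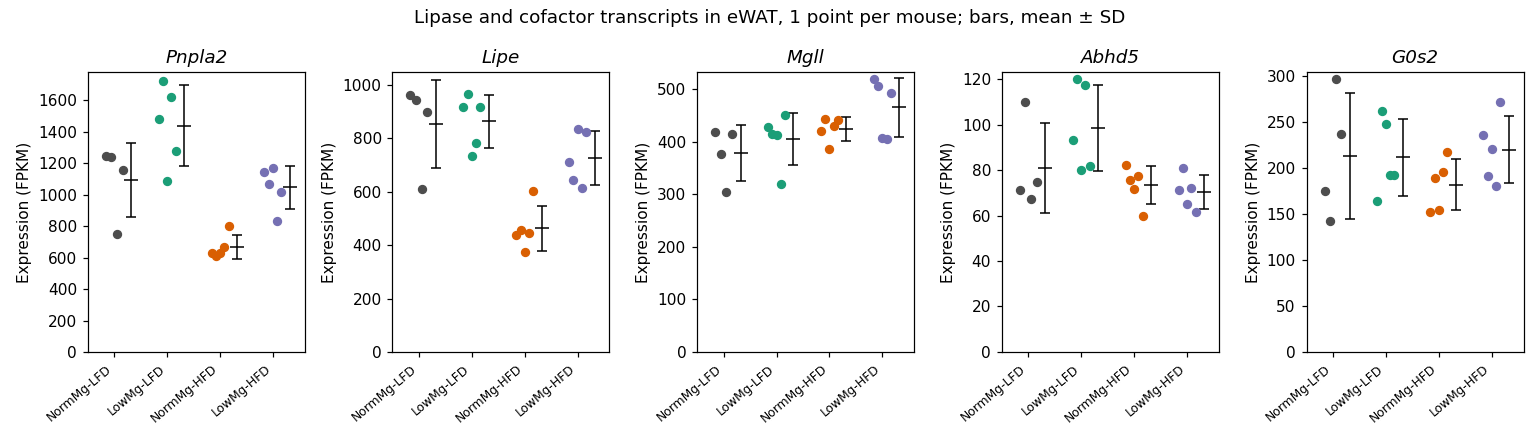
Expression (FPKM, linear axes from 0) of the 5 genes in each of 19 mice, by diet; bars give the mean ± SD of 4 (NormMg-LFD) or 5 mice. The 5 NormMg-HFD mice sit lowest for Lipe (374 to 602 FPKM) and, but for NormMg-LFD replicate 4 at 748 FPKM, for Pnpla2 (609 to 799 FPKM), whereas the 4 groups overlap for Mgll, Abhd5 and G0s2.

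High fat at normal Mg2+ went with lower transcript levels of Pnpla2 and Lipe. Pnpla2 stood at 1243, 1238, 748 and 1155 FPKM in NormMg-LFD mice (replicates 2 to 5) and at 631, 609, 629, 668 and 799 FPKM in NormMg-HFD mice (replicates 1 to 5). The groups met only through NormMg-LFD replicate 4, the lowest of its group, which lay below the highest NormMg-HFD mouse. Pnpla2 fell by 0.69 on the log2 scale (SE 0.158, adjusted p = 0.00189; limma on log2(FPKM + 1), Benjamini-Hochberg over 8336 genes), a mean of 667 ± 76.7 FPKM (SD, n = 5) against 1096 ± 236 (SD, n = 4). In bulk tissue such as this, fewer cells of a type and less RNA per cell cannot be told apart.

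Lipe stood at 960.2, 943, 611 and 896 FPKM in NormMg-LFD mice and at 437, 458, 374, 445 and 602 FPKM in NormMg-HFD mice. Here no NormMg-HFD mouse reached the lowest NormMg-LFD mouse, which was again replicate 4. Lipe fell by 0.87 on the log2 scale (SE 0.149, adjusted p = 0.000141 by limma). Of the 8336 genes tested, 37.4% passed the threshold in this comparison, 24.6% as higher and 12.8% as lower on the NormMg-HFD, and 10.6% were lower with no overlap between the groups, so that falls of this kind were common in the tissue. Calls in this comparison were 65.8% higher, but 50.1% after each mouse was centred on its median and 46.9% after quantile normalization. These scalings took the median log2 difference of all genes from 0.07 to -0.03 and -0.04.

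The other 3 members did not pass the threshold. Mgll stood at 419, 378, 305 and 415 FPKM in NormMg-LFD mice and at 421, 444, 387, 430.3 and 441 FPKM in NormMg-HFD mice, a log2 difference of 0.17 (95% interval -0.07 to 0.41, adjusted p = 0.252 by limma). In 4 of the 5 NormMg-HFD mice Mgll was above all NormMg-LFD mice. For Abhd5 the difference was -0.12 (-0.43 to 0.19, adjusted p = 0.563 by limma) and for G0s2, at 175, 142, 297 and 237 FPKM in NormMg-LFD mice, -0.19 (-0.58 to 0.21, adjusted p = 0.468 by limma). The 3 intervals include 0, and without NormMg-LFD replicate 3 the Abhd5 difference was 0.038. In the same comparison 9 of 12 adipocyte markers were lower and 1 was higher, and 11 of 12 macrophage markers were higher and 1 was lower. Cfd (-3.80) and Retn (-2.16) fell most among the adipocyte markers, whose median log2 difference was -0.73. With each mouse centred on its adipocyte markers the Pnpla2 and Lipe differences were 0.17 (adjusted p = 0.289 by limma) and -0.013 (adjusted p = 0.912 by limma), so that both calls were lost. This centring moves every gene of a mouse by the same amount, so that 89.4% of all genes were called on that scale and their median was 0.93. Mgll (1.03), Abhd5 (0.74) and G0s2 (0.67) were called higher there with most other genes, Abhd5 and G0s2 at less than the median of all genes.

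Low Mg2+ on the high-fat diet went with higher transcript levels of Pnpla2 and Lipe, in a comparison that shares its NormMg-HFD mice with the one above. Pnpla2 stood at 1143, 1067, 1172, 832 and 1017 FPKM in LowMg-HFD mice (replicates 1 to 5), each above the highest NormMg-HFD mouse at 799 FPKM. It rose by a log2 of 0.64 (SE 0.149, adjusted p = 0.00602 by limma), which is 56.3% on this scale, to a mean of 1046 ± 135 FPKM (SD, n = 5). Among the genes tested, 18.5% passed the threshold in this comparison, 5.58% were called higher and 12.9% lower in LowMg-HFD mice, and 3.2% were higher with no overlap between the groups. Calls were 30.2% higher, or 43.3% after median centring and 47.2% after quantile normalization, and Pnpla2 and Lipe were called higher with each of these.

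Lipe stood at 709.9, 645, 836, 613 and 822 FPKM in LowMg-HFD mice. Again every LowMg-HFD mouse lay above the highest NormMg-HFD mouse, at 602 FPKM. Lipe rose by a log2 of 0.65 (SE 0.141, adjusted p = 0.00451 by limma), which is 57.1%, to a mean of 725 ± 101 FPKM against 463 ± 84.1 (SD, n = 5 in each). Neither call was lost when any single mouse was left out (adjusted p 0.00309 to 0.0208 for Pnpla2 and 0.00193 to 0.0182 for Lipe, by limma). Without the 4 libraries that stood apart the differences were 0.72 and 0.71.

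Mgll, Abhd5 and G0s2 did not pass the threshold between the 2 high-fat groups. Mgll stood at 521, 506, 407, 405 and 494 FPKM in LowMg-HFD mice, and only 3 of these lay above all NormMg-HFD mice (log2 difference 0.13, 95% interval -0.10 to 0.35, adjusted p = 0.440 by limma). G0s2 stood at 236, 192, 221, 180.2 and 271 FPKM against 153, 189, 154, 195 and 217 FPKM in NormMg-HFD mice (log2 difference 0.27, -0.10 to 0.64, adjusted p = 0.303 by limma). The ranges of the inhibitor transcript overlapped, with 3 of 5 LowMg-HFD mice above all NormMg-HFD mice.

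Abhd5 stood at 71.1, 81.1, 64.9, 72.2 and 61.7 FPKM in LowMg-HFD mice and at 82.3, 75.8, 71.6, 77.5 and 59.8 FPKM in NormMg-HFD mice. These values interleave, and the log2 difference was -0.061 (-0.35 to 0.23, adjusted p = 0.801 by limma). Over the 5 genes, 2 were called higher and 0 lower in LowMg-HFD mice, beside 5.58% higher and 12.9% lower over all genes. The median log2 difference of the 5 was 0.27, beside -0.04 over all genes tested.

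Markers of the cell types in the tissue moved between the same groups, where 5.58% of all genes were called higher and 12.9% lower. Of 12 adipocyte markers, 7 were higher and 0 lower in the LowMg-HFD group than in the NormMg-HFD group, among them Cfd, which encodes the secreted protease adipsin (log2 difference 2.12), Slc2a4, which encodes the insulin-responsive glucose transporter (1.07), and Adipoq (0.69). Leptin (Lep) differed by -0.28 and did not pass (adjusted p = 0.524 by limma). The summed FPKM of the list ran from 12982 to 17593 in NormMg-HFD, 16640 to 20925 in LowMg-HFD, 18180 to 24139 in NormMg-LFD and 19599 to 28332 in LowMg-LFD mice, and no gene of it was at 0 in every mouse.

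Of 12 macrophage markers, 11 were lower and 0 higher in LowMg-HFD mice, among them Trem2, a lipid-sensing receptor (log2 difference -2.04), and Lgals3, which encodes a galectin (-1.81). Their summed FPKM ran from 2895 to 4522 in NormMg-HFD, 806 to 2538 in LowMg-HFD, 588 to 712 in NormMg-LFD and 466 to 851 in LowMg-LFD mice. Of 6 endothelial markers, 1 was higher and 0 lower in LowMg-HFD mice (summed FPKM 193 to 255 and 227 to 268), and the 6 brown or beige adipocyte markers were too low to be tested in these groups (summed FPKM at most 26.6 in any mouse).

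Read against the adipocyte markers, Pnpla2 and Lipe were not called between the high-fat groups. The mean log2(FPKM + 1) of the 12 markers was 9.08 ± 0.206 in LowMg-HFD and 8.39 ± 0.223 in NormMg-HFD mice (SD, n = 5 in each), a gap close to that of both lipases. That mean leans on Cfd (2.12) and Retn (1.33), the markers that rose most. The median difference of the 12 was lower, at 0.54, and centring on the markers without these genes was not tested. With each mouse centred on the mean of the 12 markers, the difference between LowMg-HFD and NormMg-HFD mice was -0.037 for Pnpla2 (adjusted p = 0.806 by limma) and -0.030 for Lipe (adjusted p = 0.787 by limma). On the same scale 85.8% of all genes were called, nearly all of them lower in LowMg-HFD mice, and the median of all genes was -0.73. Mgll (-0.55), Abhd5 (-0.74) and G0s2 (-0.41) were called lower there too, and of these Mgll and G0s2 were above the median of all genes and Abhd5 was close to it. Lipe, in log2 units above the marker mean, was at 0.42 ± 0.026 in LowMg-HFD, 0.45 ± 0.056 in NormMg-HFD (SD, n = 5 in each), 0.46 ± 0.165 in NormMg-LFD (SD, n = 4) and 0.38 ± 0.152 in LowMg-LFD mice (SD, n = 5).

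The macrophage markers spread more widely among LowMg-HFD mice than Pnpla2 did. The summed FPKM of the list was 2538 and 2176 in LowMg-HFD replicates 1 and 2, and 1116, 806 and 1179 in replicates 3 to 5. Pnpla2 in replicates 1 and 2, at 1143 and 1067 FPKM, was within the range of the other LowMg-HFD mice (832 to 1172 FPKM), and Lipe in replicates 1, 2 and 4, at 709.9, 645 and 613 FPKM, was lower than in replicates 3 and 5. The part of either cell type in the lipase values was not tested. The centring above is no such test, since it moves every gene of a mouse alike and used no macrophage markers.

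**Figure D2:**
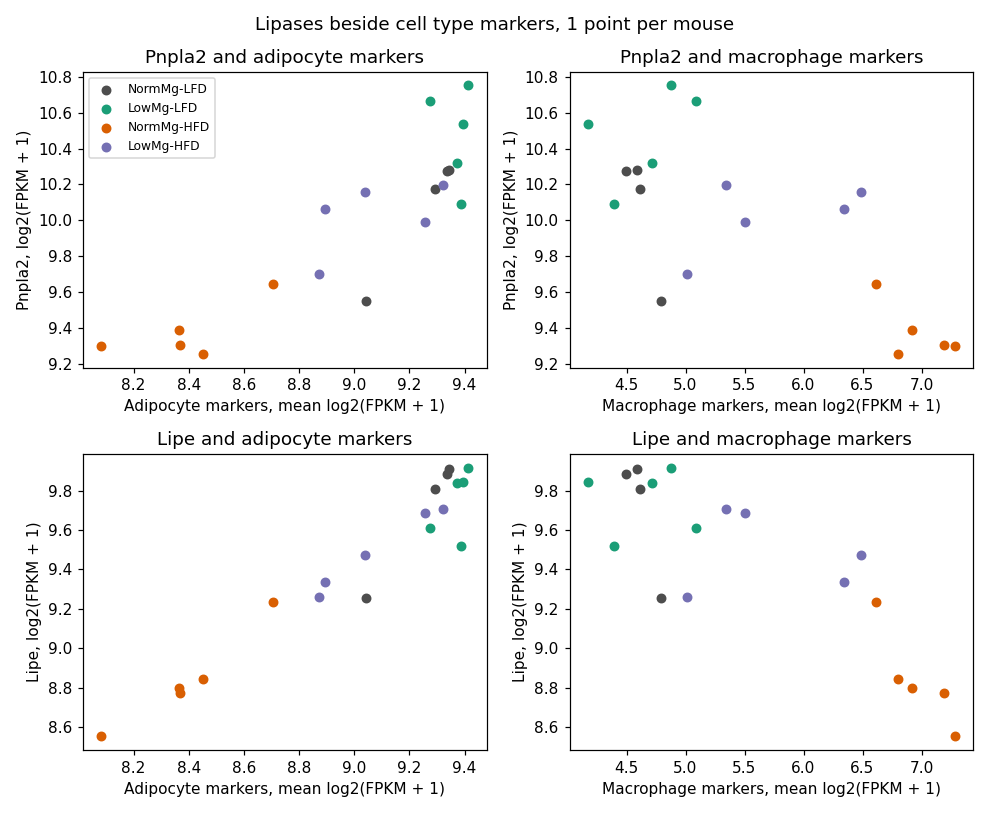
Level of Pnpla2 (upper panels) and Lipe (lower panels) in each mouse, as log2(FPKM + 1), against the mean log2(FPKM + 1) of 12 adipocyte (left) or 12 macrophage markers (right); colours mark the diet and each point is 1 mouse. Lipe rises with the adipocyte markers, and the NormMg-HFD mice hold the low end of the adipocyte axis and the high end of the macrophage axis.

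On the low-fat diet low Mg2+ moved no member past the threshold, in a comparison in which 0 of 8336 genes (0.0%) passed by limma and 547 had an unadjusted p under 0.05. Pnpla2 stood at 1484, 1724, 1089.7, 1619.6 and 1276 FPKM in LowMg-LFD mice (replicates 1 to 5), and 4 of the 5 lay above all NormMg-LFD mice. The log2 difference was 0.40 (95% interval 0.07 to 0.73, adjusted p = 0.753 by limma), and without NormMg-LFD replicate 4, the lowest of the controls, it was 0.23. This difference did not survive the correction over genes.

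Lipe stood at 917, 966, 733, 781 and 916 FPKM in LowMg-LFD mice, a range that overlaps that of the NormMg-LFD mice (log2 difference 0.032, -0.28 to 0.34, adjusted p = 0.98 by limma). Mgll, at 429, 414, 412, 320.3 and 452 FPKM in LowMg-LFD mice, differed by 0.10 (-0.14 to 0.34), G0s2, at 164, 262, 247, 192 and 192 FPKM in LowMg-LFD mice, by 0.024 (-0.37 to 0.42) and Abhd5 by 0.29 (-0.02 to 0.60), with adjusted p of 0.895, 0.988 and 0.765 by limma. Abhd5 stood at 93.3, 120.2, 80.2, 117 and 81.9 FPKM in LowMg-LFD mice and at 71.3, 110.1, 67.3 and 74.8 FPKM in NormMg-LFD mice. High values of the coactivator transcript thus occurred in both low-fat groups, and NormMg-LFD replicate 3, the library with pancreas transcripts, was the highest of its group.

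High fat at low Mg2+ went with lower Pnpla2 and Abhd5. Pnpla2 fell by 0.45 on the log2 scale from LowMg-LFD to LowMg-HFD mice (SE 0.149, adjusted p = 0.0456 by limma), with 3 of 5 LowMg-HFD mice below all LowMg-LFD mice. Abhd5 fell by 0.47 (SE 0.140, adjusted p = 0.0286 by limma), with 4 of 5 below. Of all genes 15.9% passed in this comparison and 3.51% were called lower. Calls were 78.0% higher, but 52.8% with centring on the median and 50.9% with quantile normalization, and the median of all genes went from 0.10 to -0.01 and -0.02. Lipe (-0.25, adjusted p = 0.241 by limma), Mgll (0.20, adjusted p = 0.223 by limma) and G0s2 (0.063, adjusted p = 0.851 by limma) did not pass. Both calls were near the threshold. That of Pnpla2 held only without NormMg-LFD replicate 2, 3 or 4, NormMg-HFD replicate 5, LowMg-HFD replicate 3 or LowMg-LFD replicate 3, and was lost without any other mouse (adjusted p 0.018 to 0.11 over the 19 mice, by limma). That of Abhd5 was lost without LowMg-HFD replicate 1, 3 or 5 or LowMg-LFD replicate 1, 2 or 4 (adjusted p at most 0.0747 by limma). Without the 4 libraries that stood apart the Pnpla2 difference was -0.32 (adjusted p = 0.0941 by limma). Of the 12 macrophage markers 9 were higher in this comparison, and of the 12 adipocyte markers 3 were lower and 1 was higher. With centring on the adipocyte markers both calls were lost, at -0.16 for Pnpla2 (adjusted p = 0.342 by limma) and -0.18 for Abhd5 (adjusted p = 0.426 by limma), and Mgll was called higher (0.49), beside 37.4% of genes and a median of 0.39.

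No member differed past the threshold between LowMg-HFD mice and the NormMg-LFD controls, a comparison that shares mice with those above and in which 6.93% of genes passed. Pnpla2 differed by -0.048 (95% interval -0.38 to 0.28) and Lipe by -0.22 (-0.53 to 0.09). Mgll was the furthest apart, at 0.30 (0.06 to 0.54, adjusted p = 0.123 by limma), with 3 of 5 LowMg-HFD mice above all NormMg-LFD mice, and with centring on the adipocyte markers it was called higher (0.48, adjusted p = 0.0463 by limma), beside 5.66% of genes and a median of 0.22.

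Whether low Mg2+ acted differently on the 2 diets was read from the interaction, in which 1.25% of genes passed. No member did. The interaction was 0.62 for Lipe (95% interval 0.19 to 1.05, adjusted p = 0.0988 by limma), 0.24 for Pnpla2 (-0.21 to 0.70, adjusted p = 0.566 by limma), 0.029 for Mgll, 0.25 for G0s2 and -0.35 for Abhd5. For Lipe it passed without NormMg-HFD replicate 5 (0.72, adjusted p = 0.0461 by limma). With centring on the adipocyte markers it passed for Mgll (-0.54) and Abhd5 (-0.92), beside 38.4% of all genes, whose median was -0.56. An unequal response of Lipe or Pnpla2 to Mg2+ on the 2 fat levels was therefore not shown by this test.

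**Figure D3:**
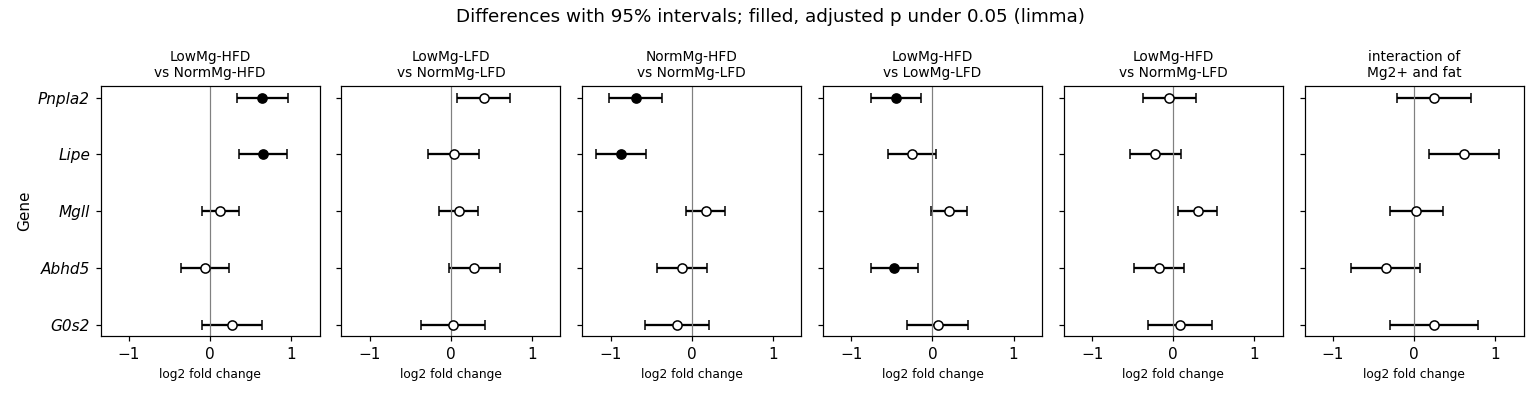
Log2 fold changes of the 5 genes with 95% intervals in 5 comparisons of diets and in the interaction of Mg2+ and fat, from limma over 19 mice; filled points have an adjusted p under 0.05. Pnpla2 and Lipe are filled in both comparisons with NormMg-HFD mice, at 0.64 and 0.65 against LowMg-HFD and at -0.69 and -0.87 against NormMg-LFD mice.

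The balance between members was read as ratios of FPKM within a mouse, as a description with no test. The level of Pnpla2 was 4.14, 3.23, 4.08, 3.42 and 3.68 times that of its inhibitor G0s2 in NormMg-HFD mice and 4.84, 5.57, 5.31, 4.62 and 3.75 times in LowMg-HFD mice. Only LowMg-HFD replicate 5 lay within the NormMg-HFD range. The ratio was 7.09, 8.69, 2.52 and 4.87 in NormMg-LFD mice and 9.07, 6.58, 4.40, 8.42 and 6.65 in LowMg-LFD mice. It was 3.71 ± 0.399 in NormMg-HFD, 4.82 ± 0.705 in LowMg-HFD, 7.02 ± 1.83 in LowMg-LFD (SD, n = 5 in each) and 5.79 ± 2.69 in NormMg-LFD mice (SD, n = 4), where replicate 4 combined the lowest Pnpla2 with the highest G0s2.

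The level of Pnpla2 was 7.66, 8.04, 8.80, 8.62 and 13.4 times that of its coactivator Abhd5 in NormMg-HFD mice and 16.1, 13.2, 18.1, 11.5 and 16.5 times in LowMg-HFD mice. NormMg-HFD replicate 5 was the only mouse of its group to reach the LowMg-HFD range. In NormMg-LFD mice the ratio was 17.5, 11.2, 11.1 and 15.4. In LowMg-LFD mice it was 14.6 ± 1.05 (SD, n = 5), with 13.6 as the lowest and 15.9 as the highest value. Pnpla2 and Abhd5 thus kept a steady ratio among LowMg-LFD mice although each varied among them, Pnpla2 from 1089.7 to 1724 and Abhd5 from 80.2 to 120.2 FPKM.

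Among the lipases, the ratio of Mgll to Pnpla2 was highest on the NormMg-HFD. It was 0.668, 0.729, 0.615, 0.644 and 0.552 in NormMg-HFD mice and 0.456, 0.474, 0.347, 0.487 and 0.485 in LowMg-HFD mice. It was 0.337, 0.305, 0.408 and 0.360 in NormMg-LFD mice and 0.289, 0.240, 0.379, 0.198 and 0.354 in LowMg-LFD mice. Each of the 5 NormMg-HFD mice was above every mouse of the other groups, and 4 of the 5 LowMg-HFD mice were above every low-fat mouse, the exception being replicate 3. The ratio of Lipe to Pnpla2 was more even, at 0.697 ± 0.0844 in LowMg-HFD and 0.692 ± 0.0663 in NormMg-HFD mice (SD, n = 5 in each), 0.782 ± 0.0243 in NormMg-LFD (SD, n = 4) and 0.610 ± 0.0925 in LowMg-LFD mice (SD, n = 5). The 4 NormMg-LFD mice lay between 0.761 and 0.817, above the highest LowMg-LFD mouse at 0.717.

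**Figure D4:**
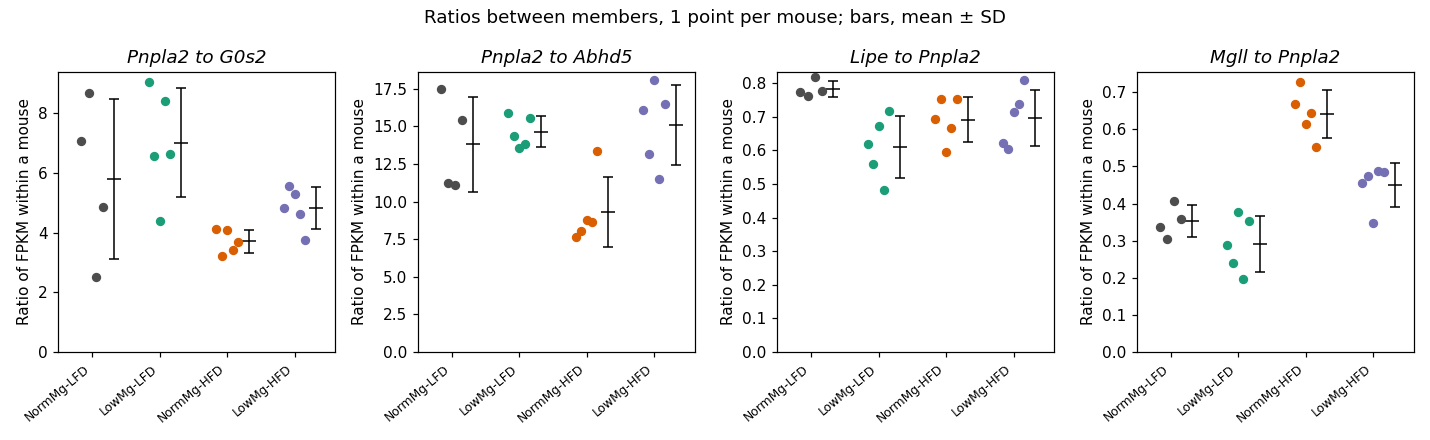
Ratios of FPKM between members within each mouse (linear axes from 0), by diet; bars give the mean ± SD. Mgll to Pnpla2 is highest in the 5 NormMg-HFD mice (0.552 to 0.729), and Pnpla2 to Abhd5 is lower in 4 of the 5 NormMg-HFD mice (7.66 to 8.80) than in any LowMg-HFD mouse.

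Other lipases were called in both directions. Of 11 listed, 9 were tested, and between the high-fat groups 2 were higher and 3 lower with low Mg2+ (median log2 difference 0.16), against 5.58% higher and 12.9% lower and a median of -0.04 over all genes. After adipocyte marker centring, when 85.5% of all genes were called lower, 1 was higher and 6 were lower. Ces1d and Ces1f, carboxylesterases that can hydrolyse triacylglycerol, rose by 1.18 (adjusted p = 0.0023 by limma) and 0.86 (adjusted p = 0.0256 by limma). The Ces1f call was lost without NormMg-HFD replicate 3 or 4 or LowMg-HFD replicate 3, which leaves 1 gene higher. Ces1d averaged 517 ± 86.6 FPKM in NormMg-LFD (SD, n = 4), 167 ± 34.6 in NormMg-HFD and 397 ± 156 in LowMg-HFD mice (SD, n = 5 in each), and so moved in the direction of Pnpla2.

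Lipa, the acid lipase of lysosomes, fell by 1.40 on the log2 scale in LowMg-HFD mice (adjusted p = 0.00299 by limma), from 162 ± 28.4 to 68.9 ± 41.7 FPKM (SD, n = 5 in each), beside 21.3 ± 2.17 FPKM in NormMg-LFD mice (SD, n = 4). Abhd12 (-0.68) and Daglb (-0.75), which act on lysophospholipid or monoacylglycerol and on diacylglycerol, also fell. These 3 genes had risen with fat at normal Mg2+ (log2 differences 2.85, 1.31 and 1.22), as did the macrophage markers given above, whose part was not tested. Lpl, the lipoprotein lipase that brings fatty acids into the tissue, differed by -0.09 (adjusted p = 0.645 by limma), and Pnpla3 by 0.44 (adjusted p = 0.361 by limma).

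Of 11 proteins of the lipid droplet and partners of lipolysis, 9 were tested, with 3 higher and 1 lower in LowMg-HFD mice (median log2 difference 0.34), beside 5.58% higher and 12.9% lower over all genes, so that the count of lower genes was near the background. After the same adipocyte marker centring 0 were higher and 7 lower, beside 85.5% lower over all genes, and with quantile normalization 5 were higher. Plin1, Cidec and Fabp4 of this list are themselves adipocyte markers, so that they help set the centred scale. Plin1, the perilipin of the fat cell droplet that holds Abhd5 until it is phosphorylated, rose by 0.45 (adjusted p = 0.0116 by limma) and Plin4, another perilipin, by 0.83 (adjusted p = 0.00577 by limma), and Cav1, which encodes caveolin, by 0.35 (adjusted p = 0.0324 by limma). The Cav1 call was lost without NormMg-HFD replicate 1, 3 or 4 or LowMg-HFD replicate 3 or 5 (adjusted p at most 0.0997 by limma), and 5 genes of the list were higher without NormMg-LFD replicate 4. Plin2, a perilipin of many cell types, fell by 1.09 on the log2 scale (adjusted p = 0.00377 by limma), from 848 ± 193 to 408 ± 135 FPKM (SD, n = 5 in each). Hilpda, which encodes a further inhibitor of adipose triglyceride lipase, had risen with fat at normal Mg2+ (adjusted p = 2.19e-05 by limma) and differed by -0.11 between the high-fat groups (adjusted p = 0.756 by limma). Hilpda thus stood at 29.3 ± 9.34 FPKM in LowMg-HFD and 31.4 ± 8.12 in NormMg-HFD mice (SD, n = 5 in each), against 10.3 ± 1.86 in NormMg-LFD mice (SD, n = 4).

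Of 19 genes of upstream signalling, 16 were tested, with 4 higher and 2 lower in LowMg-HFD mice (median log2 difference 0.01), where all genes had 5.58% higher and 12.9% lower, so that the count of lower genes was at the background. The same adipocyte marker centring gave 1 higher and 12 lower, beside 85.5% lower over all genes, and quantile normalization 0 lower. Adrb3, the beta-adrenergic receptor of fat cells, rose by 1.45 (SE 0.311, adjusted p = 0.00439 by limma), and its mean was 255 ± 134 FPKM in LowMg-HFD, 86.9 ± 33.1 in NormMg-HFD (SD, n = 5 in each) and 509 ± 150 in NormMg-LFD mice (SD, n = 4). Pde3b, which encodes the phosphodiesterase through which insulin lowers cyclic AMP, rose by 0.75, Insr, the insulin receptor, by 0.52 and Adcy6, an adenylyl cyclase, by 0.39. Gnai2, which encodes an inhibitory G protein subunit, and Prkar1a, a regulatory subunit of protein kinase A, fell by 0.30 and 0.24 on the log2 scale. The Gnai2 call was lost without NormMg-HFD replicate 3 or LowMg-HFD replicate 4, that of Prkar1a without NormMg-HFD replicate 3 or 4 or LowMg-HFD replicate 5, and both with quantile normalization. Genes that raise and genes that lower cyclic AMP were thus both among those called higher. The subunits Prkaca (-0.03) and Prkacb (-0.27) did not pass the threshold, and neither did Gnas (0.03).

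Of 10 transcriptional regulators, 7 were tested, with 2 higher and 0 lower in LowMg-HFD mice (median log2 difference 0.32), against 5.58% and 12.9% of all genes. On the adipocyte-centred scale 0 were higher and 4 lower (85.5% of all genes were lower), whereas 4 were higher with median centring and 5 with quantile normalization. Pparg and Cebpa of this list are themselves adipocyte markers and help set the centred scale. Srebf1, a regulator of lipid synthesis genes, rose by 0.50 (adjusted p = 0.00516 by limma) and Rxra, the partner of nuclear receptors, by 0.35 (adjusted p = 0.00889 by limma). Pparg, the regulator of fat cell identity, differed by 0.47 and did not pass (adjusted p = 0.0621 by limma), nor did Foxo1 (0.32, adjusted p = 0.0639 by limma). With fat at normal Mg2+, 5 of the 7 had fallen, beside 12.8% of all genes, Srebf1 by 0.98 and Pparg by 0.66 on the log2 scale. Adrb3 (0.77, adjusted p = 0.00635 by limma) and Ces1d (0.49, adjusted p = 0.0049 by limma) were still called higher after adipocyte marker centring, as were 0.312% of all genes.

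**Figure D5:**
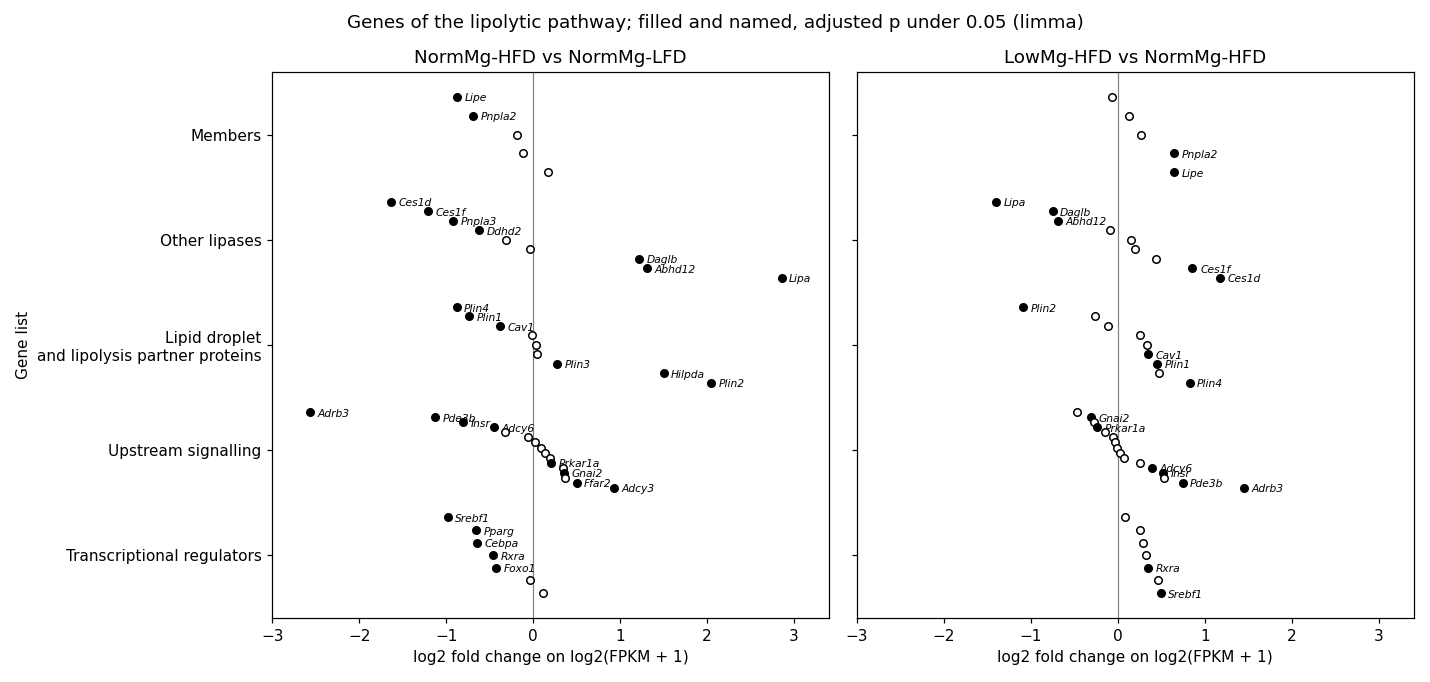
Log2 fold changes on the log2(FPKM + 1) scale of the tested genes of each list, for NormMg-HFD against NormMg-LFD mice (left) and LowMg-HFD against NormMg-HFD mice (right); each point is 1 gene, and filled, named points have an adjusted p under 0.05. Adrb3 is at -2.57 on the left and 1.45 on the right, Lipa at 2.85 and -1.40.

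The genes whose level followed each member most closely over the 19 mice were found by Pearson's r on log2(FPKM + 1), as a description, since the mice share the 4 diets. Pnpla2 was followed by Fah, which encodes the last enzyme of tyrosine breakdown (r = 0.961, and 0.921 after the group means were subtracted), Mgst1, a microsomal glutathione transferase (0.952 and 0.861), and Hibch, an enzyme of valine breakdown (0.948 and 0.775). Lipe was followed by Plin1 (0.967 and 0.889), Car3, a carbonic anhydrase abundant in fat cells (0.954 and 0.804), and Raver2 (0.951 and 0.796).

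Mgll was followed by Hsdl2 (r = 0.905, and 0.874 without group means), Hsd17b4, an enzyme of peroxisomal fatty acid oxidation (0.868 and 0.821), and Kcnk3, a potassium channel (0.868 and 0.813). Abhd5 and G0s2 had no gene as close: the nearest to Abhd5 were Rnf144b (0.774 and 0.607), Trit1 (0.770 and 0.802) and Nabp1 (0.746 and 0.610), and the nearest to G0s2 were Pja2 (0.773 and 0.820), Nfatc3 (0.767 and 0.741) and Adamts1 (0.732 and 0.773). Between members, r was 0.905 for Pnpla2 and Lipe (0.762 without group means) and 0.57 for Pnpla2 and Abhd5 (0.40), and it lay between -0.31 and 0.33 for the other 8 pairs. For Mgll and Lipe r was 0.02, and 0.522 after the group means were subtracted. For Abhd5 and G0s2 these values were -0.29 and -0.475.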

How the data were processed

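The authors mapped reads of eWAT RNA to the mouse transcriptome (GRCm38/mm10) with HISAT and Bowtie2 and quantified them with RSEM 1.2.31. The deposited values are FPKM per gene, without read counts, so count models were not used and the counting error behind a value is unknown. The authors also deposited the count of total reads and the percent mapped for each mouse (86.12% to 90.41%). The table held 24238 genes, of which 1 with an unreadable value was dropped, and 26 symbols stored as dates were restored through gene identifiers. Columns named for low Mg2+ with no fat level were assigned to LowMg-LFD, and those named as controls to NormMg-LFD, by sample title.

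Values were analysed as log2(FPKM + 1). Tested were the 8336 genes that had, within at least 1 group, a mean over 8 FPKM and 4 or more mice over 8 FPKM. One limma model (version 3.58.1, R 4.3.3, with a trend of variance on expression) held all 4 groups and gave 6 comparisons, with two-sided p values, Benjamini-Hochberg adjustment over these genes and a threshold of 0.05. The code was tested on simulated data. Each library is 1 mouse, and p values measure the spread between mice.

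The members and gene lists were chosen with earlier results of these data known. Named are the members, list genes past the threshold between the high-fat groups or with a defining role, and the 3 genes most alike to each member. The methods of the study mention a LowMg-HFD mouse set aside for pancreatic tissue. Exocrine pancreas transcripts were high here in NormMg-LFD replicate 3 alone (summed FPKM 1620, at most 44.6 in LowMg-HFD mice), so the mouse set aside and the library with these transcripts carry different group labels. All 5 LowMg-HFD mice were used here, and each mouse was left out in turn. Other settings were a pseudocount of 0.1, minimums of FPKM 1, of log2(FPKM + 1) of 3 or none, centring each mouse on its median or its adipocyte markers, quantile normalization, the compared groups alone, no trend, a replicate block and, chosen after seeing the data, leaving out the libraries that stood apart. Plots were made in matplotlib 3.10.9 under Python 3.11.15.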

Additional observations from a re-analysis of the deposited data

Results flagged for a closer look

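In NormMg-LFD mice, replicate 4 lay far below the others for Pnpla2 (748 FPKM, a gap to the next mouse of 0.854 of the group's range on the log2 scale) and for Lipe (611 FPKM, 0.847 of the range), past Dixon's 95% critical value for 4 mice. This library also had more genes over 1 FPKM than its group. Without it the differences between NormMg-HFD and NormMg-LFD mice were -0.87 for Pnpla2 and -1.03 for Lipe.

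In LowMg-LFD mice, replicate 4, the library with epididymis transcripts, was the lowest for Mgll (320.3 FPKM, 0.733 of the range), past the critical value for 5 mice. Chance alone passes these values in about 1 in 20 groups, and 20 groups of values were examined.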

How the results depend on the processing

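The calls of Pnpla2 and Lipe in LowMg-HFD against NormMg-HFD mice, and in NormMg-HFD against NormMg-LFD mice, held under each setting run except centring on adipocyte markers. With that centring the values of Pnpla2, Lipe, Mgll, Abhd5 and G0s2 were -0.037, -0.030, -0.55, -0.74 and -0.41 for LowMg-HFD against NormMg-HFD, and 0.17, -0.013, 1.03, 0.74 and 0.67 for NormMg-HFD against NormMg-LFD. For LowMg-HFD against LowMg-LFD they were -0.16 for Pnpla2, 0.039 for Lipe, 0.49 for Mgll and -0.18 for Abhd5, and against NormMg-LFD 0.13 for Pnpla2 and 0.48 for Mgll. For LowMg-LFD against NormMg-LFD they were -0.082 for Lipe, -0.016 for Mgll and -0.090 for G0s2, and in the interaction -0.33 for Pnpla2, -0.54 for Mgll, -0.92 for Abhd5 and -0.32 for G0s2. Between the high-fat groups Cav1 (-0.34), Plin1 (-0.23), Srebf1 (-0.19), Rxra (-0.33), Adcy6 (-0.29) and Insr (-0.16) turned negative. Of these, Plin1 is itself an adipocyte marker, so its value is set against a mean that includes it. This centring shifts all genes of a mouse alike (the median of all genes was -0.73 between the high-fat groups and 0.93 between the normal-Mg2+ groups), so a gene that differed in the same direction as the markers and by less changes sign by construction.

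The Pnpla2 fall in LowMg-HFD against LowMg-LFD mice kept its size of -0.45 and lost its call with a minimum of FPKM 1, no minimum, the compared groups alone and the replicate block (adjusted p up to 0.146 by limma), and was -0.35 with quantile normalization and -0.32 without the 4 libraries that stood apart. That of Abhd5 (-0.47) lost its call with no minimum and, as did that of Pnpla2, with adipocyte marker centring. Lipe in LowMg-LFD against NormMg-LFD mice was -0.064 with quantile normalization, -0.079 without the 4 libraries and -0.12 without both replicates 4, and Mgll -0.0021 in the last. The Lipe interaction passed with quantile normalization (0.82) and without both replicates 4 (0.83). With quantile normalization Mgll was -0.034 in NormMg-HFD against NormMg-LFD, Abhd5 0.0091 in LowMg-HFD against NormMg-HFD and G0s2 -0.036 in LowMg-HFD against LowMg-LFD mice, the last -0.047 with centring on the median.

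Genes called in the interaction (104) were 24 with a pseudocount of 0.1, 48 with a minimum of FPKM 1, 2 with none, 245 with centring on the median, 347 with quantile normalization, 67 without the trend, 0 without the 4 libraries and 58 without both replicates 4. For LowMg-HFD against NormMg-LFD (578) there were 245 with no minimum, 104 with the compared groups alone and 162 without the 4 libraries. For LowMg-HFD against LowMg-LFD (1329) there were 665 with the compared groups alone, and for LowMg-LFD against NormMg-LFD 1 with no minimum. Little sign was seen that replicate numbers pair the mice. Of same-numbered pairs, 5 of 27 correlated over 0.1 (highest r 0.339). Of pairs with different numbers, 18 of 108 did (highest r 0.201). The replicate block gave 380 genes for LowMg-HFD against NormMg-LFD and 0 for the interaction, and changed no call of a member but that of Pnpla2 in LowMg-HFD against LowMg-LFD mice.

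With single mice left out, values for LowMg-HFD against LowMg-LFD ran from -0.55 to -0.37 for Pnpla2, -0.54 to -0.39 for Abhd5 and -0.024 to 0.15 for G0s2. For LowMg-HFD against NormMg-LFD they ran from -0.22 to 0.032 for Pnpla2 and -0.086 to 0.26 for G0s2. For LowMg-LFD against NormMg-LFD they ran from -0.12 to 0.10 for Lipe, -0.0021 to 0.18 for Mgll and -0.15 to 0.20 for G0s2, for NormMg-HFD against NormMg-LFD from -0.20 to 0.038 for Abhd5, and in the interaction from 0.55 to 0.77 for Lipe and -0.053 to 0.13 for Mgll. Gene counts ran from 921 (without NormMg-HFD replicate 3) to 1644 for LowMg-HFD against NormMg-HFD, 800 (without LowMg-HFD replicate 2) to 1468 for LowMg-HFD against LowMg-LFD, 198 (without LowMg-HFD replicate 2) to 809 for LowMg-HFD against NormMg-LFD and 0 to 482 (without LowMg-HFD replicate 2) for the interaction, which therefore rests on which mice are kept. With 4 or 5 mice a group and no counts, small differences of Mgll, Abhd5 and G0s2 could not be resolved.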
